A study of Mus musculus with 7 samples.

Results

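The transcripts described here are the better-expressed antisense RNAs of mouse oocytes from secondary follicles. They are the gene rows that the deposited table types as antisense RNA and whose mean over its 7 value columns was at least 15, leaving out the imprinted antisense RNAs Airn and Kcnq1ot1. Of 26019 gene rows, 1239 were antisense RNAs, and 198 met the rule. Airn had a mean of 19.4 and was left out by name, while Kcnq1ot1, with a mean of 11.1, lay below the threshold in any case. The members were thus chosen by their mean level over all 7 libraries, so levels are given as a description without a test. Just inside the threshold lay Gm12126, Gm43137 and 3010003L21Rik, with means of 15.1, 15.2 and 15.3, and just outside it Gm26670, Gm16150 and Gm26737, with means of 14.9, 14.8 and 14.7. Each antisense RNA was set beside its partner, the protein-coding row that overlaps it by chromosome, start and stop, on the opposite strand where there was one.

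The KO libraries (n = 3) came from knockout C57BL/6J mice and the WT libraries (n = 4) from wild-type C57BL/6J mice, with 5 oocytes pooled in each library. The series is titled for mitofusin 2 and its design text says Mfn2-/-, but Mfn1-/- stands in the genotype label and in the treatment protocol. The mice were 8 weeks old by the protocol, but P1 by the age label. The design text names 3 mice per group although there were 4 WT libraries, and no label says which mice a library came from or how the allele was deleted. The p-values thus measure only the spread between these samples.

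An antisense RNA is a long noncoding RNA transcribed from the strand opposite to another gene. Such RNAs can start beside the promoter of their partner and run away from it, lie wholly within the partner, or run into its end. Some are known to silence or to activate the partner gene, and others have no known action. Mouse oocytes carry a short oocyte form of Dicer and make small RNAs from double-stranded RNA, for which paired sense and antisense transcripts can serve as a source. The cDNA method used here captures polyadenylated RNA, and its library kit does not mark strand. Reads from exon sequence that an antisense RNA shares with its partner therefore cannot be told apart.

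Mfn2, which encodes mitofusin 2, a GTPase that fuses mitochondria, had 7.27, 4.55 and 7.66 normalised counts in KO libraries, against 35.3, 35.1, 14.95 and 29.2 in WT libraries, in the order of the replicate numbers used throughout. A normalised count is the number of reads of a gene divided by a size factor close to 1. The log2 fold change of Mfn2, KO over WT, was -1.94 (limma adjusted p = 0.00571, SE 0.40), and that of its paralogue Mfn1 was 0.20 (limma adjusted p = 0.499, SE 0.16). Libraries held 6851042 to 8343915 reads in genes in KO and 6676076 to 7741141 in WT. Of 14 oocyte markers tested, Ddx4 was called, with a higher level in KO, and their summed level was 259150 to 382173 in KO and 240599 to 294537 in WT. Granulosa cells surround the oocyte in the follicle, and of 14 of their markers tested Nr0b1 was called higher and Cyp19a1 and Esr2 lower in KO. The median log2 fold change of these 14 markers, KO over WT, was 1.54. Over all 16 granulosa markers the mean log2 level was 3.39, 4.35 and 4.23 in KO libraries 1 to 3 and 3.24, 2.53, 2.98 and 2.71 in WT libraries 1 to 4. Their summed level overlapped between groups (1193 to 1625 in KO and 1322 to 1553 in WT), and its largest part was Esr2, with a mean of 888 over the 7 libraries. Amh and Fst were too low to be tested. Inha, an inhibin subunit made by granulosa cells, had 54.5, 395 and 338 normalised counts in KO libraries, against 66.7, 18.1, 23.4 and 11.9 in WT libraries. Summed markers of theca and stroma (10.9 to 21.8 in KO, 9.35 to 21.3 in WT), endothelium (164 to 225 in KO, 190 to 223 in WT) and leukocytes (14.2 to 27.3 in KO, 16.0 to 23.8 in WT) overlapped between groups. Of the red blood cell markers, Hba-a2 was present, at 0 in every KO library and at up to 2.13 in WT.

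Antisense RNAs were more often lower than higher in KO oocytes. By limma at an adjusted p under 0.05 over the 19227 genes tested, 26 of the 198 fell and 1 rose, so that 13.1% fell and 0.505% rose. Among all tested genes 3.63% were called lower and 3.09% higher, 6.71% in all. Among protein-coding genes of the same minimum level the shares were 4.16% lower and 4.55% higher, and among 432 lincRNAs of that level 20.1% lower and 0.231% higher. The remaining 171 antisense RNAs were not called. The log2 fold change had a median of -0.31 over the antisense RNAs, 141 of which lay below 0, against -0.01 over all tested genes, 0.02 over the protein-coding genes and -0.32 over the lincRNAs. All 26 that fell were lower in every KO library than in every WT library, a separation that the call itself favours. Of these 26, 18 fell at least 2-fold. Every KO library lay below every WT library in 57 antisense RNAs (28.8%, against 9.83% of all genes), and above in 8 (4.04%, against 9.37% of all genes). The other 133 overlapped between groups. Each library pooled 5 oocytes and was scaled by a size factor, so these are levels relative to other genes. Bulk libraries cannot tell RNA of the oocytes from RNA of other cells carried along.

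**Figure D1:**
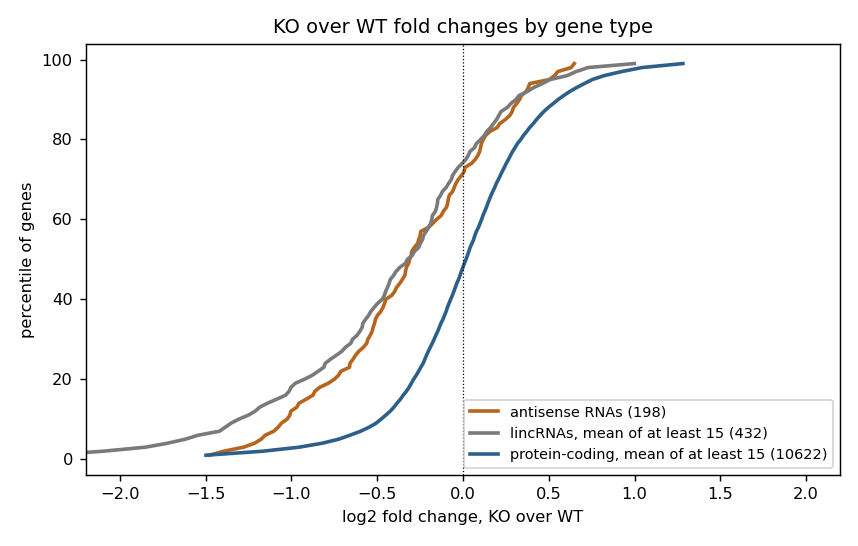
Percentiles (vertical axis) of the log2 fold change, KO over WT (horizontal axis), for the 198 antisense RNAs and for lincRNAs and protein-coding genes with a mean of at least 15. The curves of the antisense RNAs and lincRNAs cross their middle at -0.31 and -0.32, left of the protein-coding curve, which crosses it at 0.02.

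The count depended on which libraries were used. It was 11 (1 higher, 10 lower) without KO 2, where 3.21% of all genes were called. It was 31 without KO 1 (9.36% of all genes) and 25 without KO 3 (4.44%). It was 15, 16, 13 and 17 without WT 1, 2, 3 and 4 in turn, where 3.86%, 3.82%, 3.16% and 4.87% of all genes were called. It was 1 (lower) without both KO 2 and KO 3 (0.543% of all genes), and 0 with the granulosa marker level as a covariate in limma, where 17 had an unadjusted p under 0.05 (14 of them lower). That fit called 1 of all tested genes (0.0052%), and the marker level was higher in all 3 KO libraries than in all 4 WT libraries. In the main limma fit, without the covariate, 75 antisense RNAs had an unadjusted p under 0.05 (65 of them lower). Without KO 2 and KO 3 the lone KO library is assumed to vary like the WT libraries. The count tests gave 25 (edgeR, with 6.94% of all genes called) and 24 (DESeq2, 7.58%) called antisense RNAs, all of them among the 27.

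The direction was seen in each KO library, and it was largest in KO 2. Against the WT mean, the median log2 level of the 198 antisense RNAs was -0.23 in KO 1, -0.46 in KO 2 and -0.19 in KO 3, and between -0.05 and 0.14 in the WT libraries. Over all genes with a mean of at least 15, the same medians lay between -0.02 and 0.02 in all 7 libraries. KO 2 held the lowest of the 7 values in 92 antisense RNAs (46.5%), against 18.7% of all genes with a mean of at least 15. KO 1 lay below every WT library in 90 antisense RNAs (45.5%, against 23.8% of all tested genes). It lay above every WT library in 19, for which the share of all tested genes was not computed. The part of granulosa cell RNA in these values was not tested. Together the antisense RNAs took 0.480%, 0.443% and 0.495% of the reads of KO 1, 2 and 3, and 0.540%, 0.525%, 0.555% and 0.529% of those of WT 1 to 4.

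**Figure D2:**
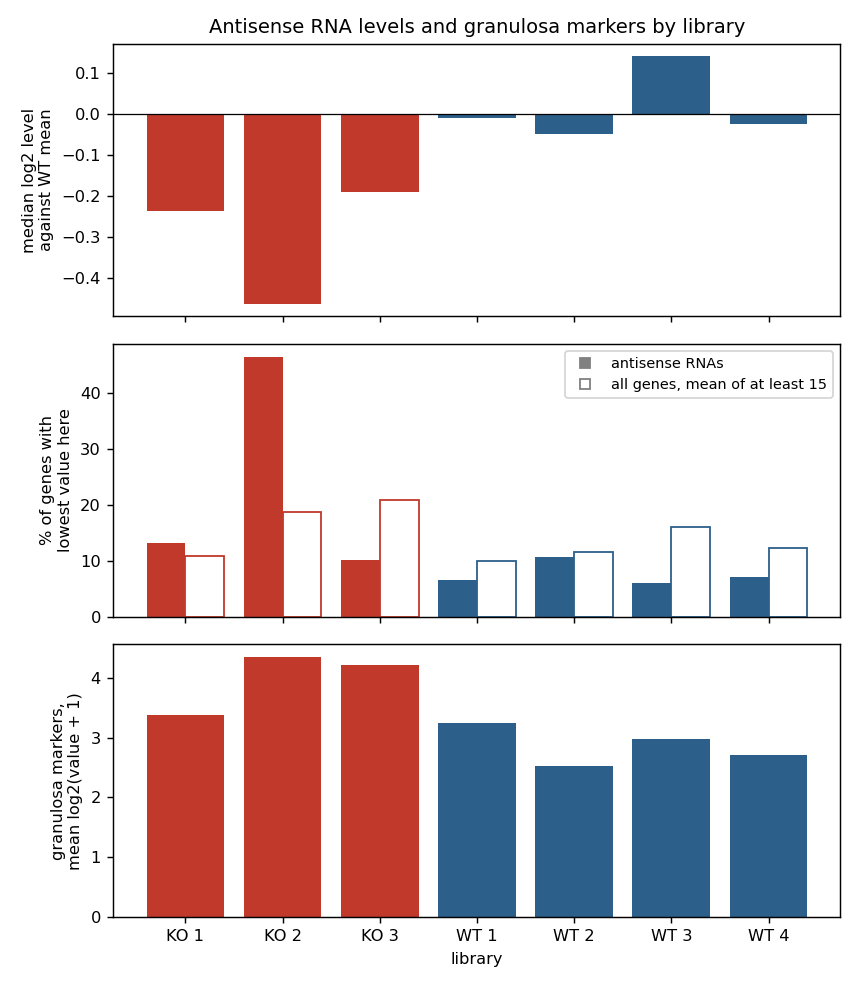
Top, median log2 level of the 198 antisense RNAs in each library against their WT mean; middle, share of genes whose lowest of 7 values lay in that library, filled for antisense RNAs and open for all genes with a mean of at least 15; bottom, mean log2(normalised count + 1) of the granulosa markers. KO bars are red and WT bars blue; KO 2 stands lowest at the top (-0.46) and holds the lowest value of 46.5% of the antisense RNAs.

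Calls were more frequent among the more abundant antisense RNAs. Of the 71 with a mean from 15 to 30, 4 fell, and of the 77 from 30 to 100, 9 fell. Among 33 from 100 to 300, 9 fell (27.3%, against 4.99% of all genes in that range), and among the 17 above 300, 4 fell and 1 rose. Of the 488 tested antisense rows under a mean of 15, 2 were called higher (0.41%) and 5 lower (1.02%). Over all genes the share called lower was 4.87%, 5.14%, 4.99% and 4.63% in these 4 ranges. The means ran from 15.1 to 7248 with a median of 43.7, whereas the median over all antisense rows of the table was 1.18.

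The position of an antisense RNA on its partner was taken from the table. Of the 198, 175 overlapped a protein-coding row, 174 of them on the opposite strand, and these had 169 distinct partners. The antisense RNA lay inside the partner in 78 pairs, ran head to head with it (overlapping at their starts) in 46, tail to tail (overlapping at their ends) in 40, and enclosed it in 10. Those that fell numbered 9, 8, 2 and 2 in these classes. The remaining 5 were the 1 antisense RNA on the strand of its partner and 4 of the 23 with no partner. In 50 of the 198, over 20% of the 75-base stretches of the transcript recur in another gene, including the genes they overlap. In 127 pairs exons of both genes overlapped, and 13 of these antisense RNAs fell, with a median log2 fold change of -0.26. In 48 pairs no exon overlapped, and 9 of these antisense RNAs fell and 1 rose, with a median of -0.49. Per kb of exon sequence, the antisense RNA was above its partner in 114 of 175 pairs and over 10 times above it in 60, while the partner was over 10 times above the antisense RNA in 20. The median level per kb was 36.3 for the antisense RNAs and 15.6 for the partners. Antisense RNAs were chosen by a mean of at least 15 and partners were not, and 32 of the 169 partners lay below it. The rule therefore tilts these comparisons per kb towards the antisense RNAs. Exonic lengths count every exon of a gene in GENCODE M21.

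Among the head-to-head pairs, 1700097N02Rik starts beside Dnah8, which encodes an axonemal dynein heavy chain of sperm flagella. In RefSeq (GRCm38.p6) the starts are 31 bp apart and the promoter windows, from 250 bases before to 50 after each start, share 130 bp. In the same annotation the starts of Gm44096 and of C1rl, a protease related to complement C1r, are 1289 bp apart. The 4 windows are printed as examples, and in both pairs the antisense RNA fell while its partner was not called. This also held for other head-to-head pairs whose windows are not printed, such as AC154747.3 and Txndc5. Capitals mark matches on either strand, none of which overlap, to GGGCGG (the GC box, found in 35.7% of the 32851 promoter windows of the RefSeq table), TATAAA (the TATA box, 13.6%), CACGTG (an E-box, 7.15%) and CCAAT (the CCAAT box, 37.4%). The windows lie at chr17:30626856-30627155 (minus strand), chr17:30626686-30626985 (plus strand), chr6:124494353-124494652 (minus strand) and chr6:124492863-124493162 (plus strand).
1700097N02Rik: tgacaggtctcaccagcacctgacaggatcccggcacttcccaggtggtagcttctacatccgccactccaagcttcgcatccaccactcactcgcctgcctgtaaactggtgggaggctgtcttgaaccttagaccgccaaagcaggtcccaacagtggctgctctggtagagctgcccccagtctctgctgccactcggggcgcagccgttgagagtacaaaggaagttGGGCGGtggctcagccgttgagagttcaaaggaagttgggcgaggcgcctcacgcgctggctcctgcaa
Dnah8: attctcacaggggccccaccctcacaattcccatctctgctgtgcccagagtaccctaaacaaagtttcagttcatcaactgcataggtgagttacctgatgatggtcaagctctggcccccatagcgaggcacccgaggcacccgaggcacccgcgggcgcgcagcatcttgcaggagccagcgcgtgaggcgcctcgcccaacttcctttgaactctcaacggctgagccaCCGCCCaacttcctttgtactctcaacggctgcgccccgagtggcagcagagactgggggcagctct
Gm44096: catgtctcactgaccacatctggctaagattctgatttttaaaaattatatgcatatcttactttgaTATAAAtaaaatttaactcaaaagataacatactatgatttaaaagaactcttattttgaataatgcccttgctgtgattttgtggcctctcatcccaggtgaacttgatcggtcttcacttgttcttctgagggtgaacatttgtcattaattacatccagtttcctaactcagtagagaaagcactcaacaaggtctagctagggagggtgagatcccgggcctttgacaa
C1rl: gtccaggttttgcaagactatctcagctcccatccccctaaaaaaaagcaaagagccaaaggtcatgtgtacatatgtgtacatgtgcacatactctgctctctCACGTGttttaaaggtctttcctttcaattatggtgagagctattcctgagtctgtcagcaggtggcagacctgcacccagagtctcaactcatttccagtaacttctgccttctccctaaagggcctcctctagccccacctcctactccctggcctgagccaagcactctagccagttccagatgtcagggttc

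The windows of 1700097N02Rik and Dnah8 held the same GC box, read from opposite strands, and 14 and 16 CG dinucleotides, against a median of 7 over all promoters. In the Dnah8 window it is printed as CCGCCC. The Gm44096 window held a TATAAA and 2 CG, the C1rl window a CACGTG and 1 CG, and CCAAT was in none of the 4. A match is a description of the letters and not a bound site.

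1700097N02Rik, of 845 exonic bases at chr17:30622441-30626905 (minus strand), had 129, 64.5 and 84.2 normalised counts in KO libraries, against 216, 194, 189.7 and 214 in WT libraries. All KO libraries lay below all WT libraries, with the lowest value in KO 2, and the log2 fold change was -1.18 (limma adjusted p = 0.00211, SE 0.21). Dnah8 had 442, 496 and 497 normalised counts in KO libraries, against 404, 445, 431 and 364 in WT libraries, and the groups overlapped. Its log2 fold change was 0.22 (limma adjusted p = 0.402, SE 0.14), and 207 exonic bases of the antisense RNA (24.5%) overlap its exons. Gm44096 (chr6:124492163-124494368, minus strand) had 16.4, 7.27 and 16.4 normalised counts in KO libraries, against 40.04, 48.99, 51.4 and 55.2 in WT libraries. It fell 3.65-fold, with a log2 fold change of -1.87 (limma adjusted p = 0.00177, SE 0.33) and no overlap between groups. C1rl was low, with 6.36, 2.73 and 7.66 normalised counts in KO libraries, against 1.91, 1.07, 1.87 and 6.50 in WT libraries, and a log2 fold change of 0.88 (limma adjusted p = 0.417, SE 0.59).

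AC154747.3, named Gm31834 in GENCODE M21, runs head to head with Txndc5, which encodes a protein disulfide isomerase of the endoplasmic reticulum. It had 301, 126 and 229 normalised counts in KO libraries, against 521, 511, 472 and 408 in WT libraries, and its log2 fold change was -1.21 (limma adjusted p = 0.00654, SE 0.23). KO 2 was the lowest and no KO library reached the WT range. Txndc5 had 908, 935 and 645 normalised counts in KO libraries, against 759, 996, 976 and 1034 in WT libraries, and the groups overlapped, with a log2 fold change of -0.19 (limma adjusted p = 0.512, SE 0.15). Gm6277 runs head to head with Cables1, whose product binds cyclin-dependent kinases. It had 40.9, 24.5 and 48.1 normalised counts in KO libraries, against 87.7, 76.7, 88.8 and 79.1 in WT libraries, with no overlap and a log2 fold change of -1.16 (limma adjusted p = 0.00887, SE 0.26), a call lost without KO 2 (adjusted p = 0.0521). Cables1 had 122, 85.5 and 72.2 normalised counts in KO libraries, against 91.5, 100.1, 108 and 81.2 in WT libraries, and the groups overlapped. Of the short transcript stretches counted above, 28.5% of those of Gm6277 and 32.3% of those of Cables1 recur in another gene. These shares include the genes they overlap, so the counts of both rows are uncertain.

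Igf1os runs head to head with Igf1, the insulin-like growth factor gene, which granulosa cells express in the mouse ovary. It had 96.3, 41.8 and 76.6 normalised counts in KO libraries, against 168, 102, 144 and 184 in WT libraries, with no overlap and a log2 fold change of -1.10 (limma adjusted p = 0.0204, SE 0.27). The call was lost without KO 2, KO 3, WT 1, WT 3 or WT 4, where the adjusted p reached 0.0858. Igf1 itself was near the detection limit, with 0, 3.64 and 5.47 normalised counts in KO libraries, against 0.953, 1.07, 0.935 and 0 in WT libraries.

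Of the 9 antisense RNAs that fell inside their partner, 4 were among those with the smallest p, and none of these 4 shared exon sequence with the partner. AC156832.1 (Gm47877) lies within Chrnb4, which encodes a nicotinic acetylcholine receptor subunit, and had 148, 129 and 174 normalised counts in KO libraries, against 364, 330.2, 336 and 302 in WT libraries. It averaged 150.4 ± 22.5 in KO and 333 ± 25.4 in WT (SD, n = 3 and 4), 2.22-fold lower, with a log2 fold change of -1.15 (limma adjusted p = 0.000519, SE 0.17). Chrnb4 itself had 0, 5.45 and 4.38 normalised counts in KO libraries, against 0.953, 1.07, 0 and 2.17 in WT libraries. AC133947.1 (Gm48677), within the G protein subunit gene Gnb5, had 218, 129 and 229 normalised counts in KO libraries, against 343, 323, 399 and 387 in WT libraries, with no overlap and a log2 fold change of -0.95 (limma adjusted p = 0.00436, SE 0.19). Gnb5 had 133, 194 and 116 normalised counts in KO libraries, against 104, 137, 97.2 and 129 in WT libraries, and the groups overlapped. AC153729.2 (Gm48093), within Tpd52l1, had 206, 118 and 233 normalised counts in KO libraries, against 385, 279, 422 and 369 in WT libraries, and its log2 fold change was -1.01 (limma adjusted p = 0.00872, SE 0.21). Tpd52l1 had 54.5, 128 and 101 normalised counts in KO libraries, against 66.7, 51.1, 45.8 and 45.5 in WT libraries, and its log2 fold change of 0.77 (limma adjusted p = 0.0927, SE 0.27) was not called. In these 3 antisense RNAs KO 2 was the lowest library and no KO value reached the WT range.

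Gm42817, within the transmembrane protein gene Tmem132d, was the most abundant antisense RNA that fell. It had 1091, 945 and 1158 normalised counts in KO libraries, against 1889, 1578, 1629 and 1552 in WT libraries, which averaged 1065 ± 109 in KO and 1662 ± 154 in WT (SD, n = 3 and 4). The groups did not overlap, and the log2 fold change was -0.64 (limma adjusted p = 0.00503, SE 0.13). Tmem132d had 35.4, 30.9 and 54.7 normalised counts in KO libraries, against 66.7, 55.4, 45.8 and 62.8 in WT libraries, and a log2 fold change of -0.53 (limma adjusted p = 0.251, SE 0.27). Gm15941 was the only member whose overlapping protein-coding row, Ncald, lies on the same strand in the table. Of the short stretches of its transcript counted above, 45.8% recur in another gene, including the genes it overlaps, so the counts of Gm15941 are uncertain. It had 164, 118 and 86.4 normalised counts in KO libraries, against 226, 225, 270.1 and 209 in WT libraries, with a log2 fold change of -0.96 (limma adjusted p = 0.00715, SE 0.20). Ncald, a neuronal calcium sensor gene, had 739, 664 and 746 normalised counts in KO libraries, against 821, 882, 837 and 946 in WT libraries, also without overlap, but its log2 fold change of -0.28 (limma adjusted p = 0.211, SE 0.13) was not called.

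Gm30214 and Gm43650 overlap no protein-coding row. In GENCODE M21 they lie on chromosome 14 (chr14:53032417-53039466 and chr14:53336637-53343922, minus strand) opposite the T cell receptor segments Trav13d-3 and Trav13n-3. Of the 75-base stretches of their transcripts, 82.5% and 75.3% recur in a gene elsewhere, for each mostly in the other, so the counting may have split or dropped their reads and the values of either are uncertain. Gm30214 had 115, 74.5 and 70.01 normalised counts in KO libraries, against 233, 235, 231 and 198 in WT libraries, which averaged 86.6 ± 24.98 in KO and 224 ± 17.5 in WT (SD, n = 3 and 4). It fell 2.63-fold, with a log2 fold change of -1.39 (limma adjusted p = 0.000482, SE 0.20), the smallest p of the 198. Gm43650 had 38.2, 21.8 and 32.8 normalised counts in KO libraries, against 65.8, 60.7, 78.5 and 73.7 in WT libraries, with a log2 fold change of -1.18 (limma adjusted p = 0.0098, SE 0.26) that was not called without KO 2 (adjusted p = 0.0526). In both, no KO library reached the WT range.

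**Figure D3:**
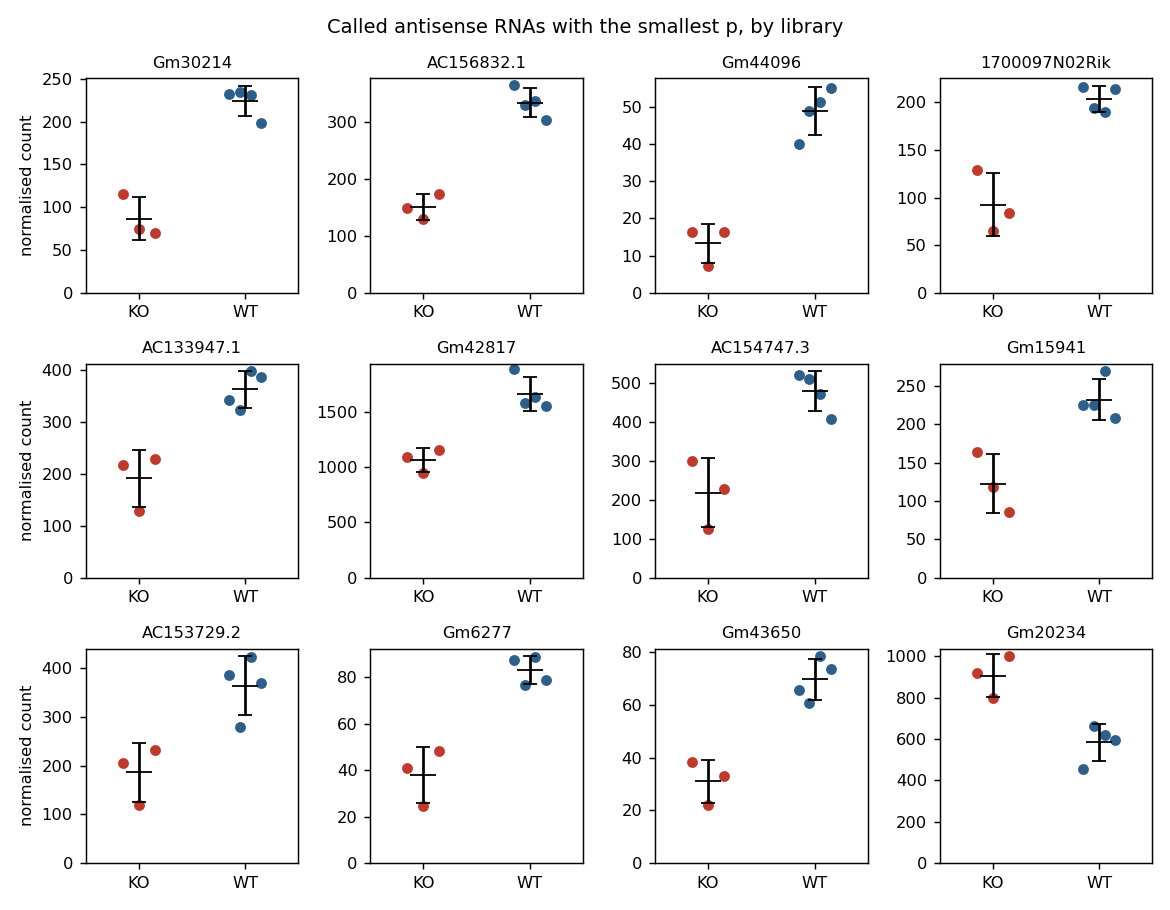
Normalised counts (vertical axes, from 0) of the 12 called antisense RNAs with the smallest p, with 1 point per library, KO at the left and WT at the right of each panel, and bars for the mean ± SD (n = 3 and 4). KO lies wholly below WT in 11 panels and wholly above it in the panel of Gm20234.

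Gm20234 was the only antisense RNA that rose. It lies tail to tail with Slfn2, a Schlafen family gene, and had 918, 800.0 and 1004 normalised counts in KO libraries, against 457, 661, 622 and 596 in WT libraries. It averaged 907 ± 102 in KO and 584 ± 89.00 in WT (SD, n = 3 and 4), with a log2 fold change of 0.64 (limma adjusted p = 0.0134, SE 0.15) and no overlap. The call was lost without WT 1, the lowest library (adjusted p = 0.0585). Slfn2 was near the detection limit, with 3.63, 0.909 and 3.28 normalised counts in KO libraries, against 0, 0, 2.80 and 0 in WT libraries, and 14.8% of the 75-base stretches of Gm20234 recur in a gene elsewhere.

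The first 9 antisense RNAs by p kept their call when any 1 library was left out. They are Gm30214, AC156832.1, Gm44096, 1700097N02Rik, AC133947.1, Gm42817, AC154747.3, Gm15941 and AC153729.2. The other 18 lost it in at least 1 of the 7 limma fits, and AW495222 in all 7. Of the 27 calls, 23, 11 and 19 held without KO 1, 2 and 3, and 15, 16, 13 and 16 without WT 1, 2, 3 and 4. The members that fell beyond those described had log2 fold changes from -1.46 (Gm26877, within Nedd9) to -0.52 (Gm45894, over Ankrd11). None of the 27 changed sign in any alternative run.

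The partners, in contrast to the antisense RNAs, were called in both directions in like numbers. Of 163 distinct partners tested, limma called 8 higher (4.91%) and 9 lower (5.52%). The shares were 3.88% and 3.48% of all tested protein-coding genes, and 4.55% and 4.16% of those with a mean of at least 15. The median log2 fold change of the partners was 0.01. Both rows were called in 2 pairs. Across pairs that share the same 7 libraries, the Spearman correlation of the log2 fold changes of the antisense RNA and the partner was 0.14 over 123 pairs with overlapping exons and -0.07 over 46 pairs without.

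**Figure D4:**
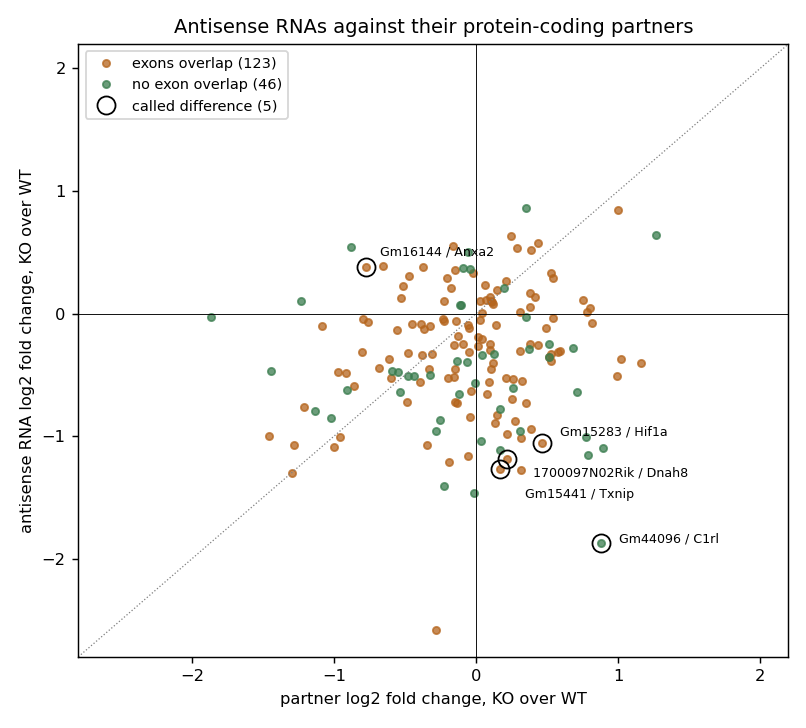
Log2 fold change, KO over WT, of each antisense RNA (vertical axis) against that of its partner (horizontal axis) for 169 pairs, coloured by whether their exons overlap, with the line of equal change dotted. Most points lie below 0 on the vertical axis at partner values on both sides of 0, and the 5 pairs with a called difference are circled.

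The partners that were called stood beside antisense RNAs that were mostly not, and 171 of all 198 antisense RNAs were not called. Etl4 had 36.3, 56.4 and 26.3 normalised counts in KO libraries, against 129.7, 132, 164 and 138 in WT libraries, with a log2 fold change of -1.86 (limma adjusted p = 0.000243, SE 0.24). Gm17171, inside it and without shared exons, had 31.8, 19.1 and 26.3 normalised counts in KO libraries, against 25.7, 20.2, 38.3 and 21.7 in WT libraries, and the groups overlapped. Pdx1, a homeodomain transcription factor gene best known from the pancreas, fell as well, with 97.2, 53.6 and 43.8 normalised counts in KO libraries, against 179, 148, 110.3 and 152 in WT libraries, and a log2 fold change of -1.23 (limma adjusted p = 0.00591, SE 0.25). Its head-to-head antisense RNA Plut had 76.3, 83.6 and 75.5 normalised counts in KO libraries, against 72.5, 61.8, 65.4 and 96.4 in WT libraries, and the groups overlapped. Sec16b, whose product acts at exit sites of the endoplasmic reticulum, had 13.6, 11.8 and 9.85 normalised counts in KO libraries, against 29.6, 29.8, 43.9 and 32.5 in WT libraries, and a log2 fold change of -1.45 (limma adjusted p = 0.0109, SE 0.33). Gm15486, head to head with it, had 35.4, 18.2 and 24.1 normalised counts in KO libraries, against 39.1, 29.8, 40.2 and 31.4 in WT libraries, and a log2 fold change of -0.46 (limma adjusted p = 0.407, SE 0.31), which was not called. The call of Sec16b was lost without WT 3 (adjusted p = 0.0524).

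Partners also rose without a called change of the antisense RNA. Hmga2, a chromatin architecture gene, had 151, 219 and 228 normalised counts in KO libraries, against 109, 90.5, 90.7 and 102 in WT libraries, with a log2 fold change of 1.00 (limma adjusted p = 0.00436, SE 0.20). 1700006J14Rik, inside it, had 33.6, 96.4 and 76.6 normalised counts in KO libraries, against 42.9, 40.5, 24.3 and 33.6 in WT libraries, and its own log2 fold change of 0.85 (limma adjusted p = 0.128, SE 0.33) was not called. Lama2, a laminin subunit of basement membranes, had 561, 693 and 736 normalised counts in KO libraries, against 437, 429, 388 and 389 in WT libraries, and a log2 fold change of 0.68 (limma adjusted p = 0.00731, SE 0.15), and 4930579H20Rik inside it had 21.8, 15.5 and 10.9 normalised counts in KO libraries, against 20.02, 10.7, 23.4 and 26.00 in WT libraries. For Zbtb11, a zinc finger gene, the log2 fold change was 0.82 (limma adjusted p = 0.0096, SE 0.18), with 245, 212 and 229.7 normalised counts in KO libraries, against 121, 108, 152 and 139.7 in WT libraries. Its antisense RNA Zbtb11os1 had 19.1, 17.3 and 16.4 normalised counts in KO libraries, against 12.4, 18.1, 23.4 and 22.7 in WT libraries, and the groups overlapped. Ipo11, an importin of nuclear import, had 96.3, 118 and 136 normalised counts in KO libraries, against 58.2, 54.3, 48.6 and 71.5 in WT libraries, and a log2 fold change of 0.99 (limma adjusted p = 0.0108, SE 0.22). Gm28989, tail to tail with it, had 29.1, 24.5 and 28.4 normalised counts in KO libraries, against 40.04, 47.9, 41.1 and 30.3 in WT libraries, all KO values below all WT values, and a log2 fold change of -0.51 (limma adjusted p = 0.304, SE 0.28) that was not called.

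The change of an antisense RNA was set against that of its partner in each library. Of the 566 such pairs tested in the table, limma called the difference between antisense and partner log2 levels in 5 (0.883%), and all 5 were among the 169 pairs tested here. In 4 (0.707%) the antisense RNA was lower relative to its partner in KO, and in 1 (0.177%) higher. At an unadjusted p under 0.05 there were 41 of these 169 pairs, of which 35 were lower, against 90 of all 566 pairs. The median of the 169 differences was -0.21, against -0.16 over all 566. These 5 calls were sensitive to the processing. Each held without KO 1 and was lost when any other single library was left out, and the number of calls by limma was 0 with a pseudocount of 0.5 (38 at an unadjusted p under 0.05) and 19 with a pseudocount of 5. The sign of the 5 differences was kept in every alternative.

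Exon sequence shared with the coding part of the partner is printed for the 2 pairs of these in which the antisense RNA encloses its partner, since unstranded reads there can be counted for either gene. The stretches come from GENCODE M21 transcripts of the antisense RNA (GRCm38, minus strand), at chr3:96559723-96559842 for Gm15441 and chr12:73926628-73926747 for Gm15283. Capitals mark bases that lie on a coding exon of Txnip and of Hif1a, which here is every base, and the partner mRNA carries the reverse complement.
Gm15441: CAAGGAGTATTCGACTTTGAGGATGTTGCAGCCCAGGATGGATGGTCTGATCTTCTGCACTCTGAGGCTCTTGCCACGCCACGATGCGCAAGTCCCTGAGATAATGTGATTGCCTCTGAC
Gm15283: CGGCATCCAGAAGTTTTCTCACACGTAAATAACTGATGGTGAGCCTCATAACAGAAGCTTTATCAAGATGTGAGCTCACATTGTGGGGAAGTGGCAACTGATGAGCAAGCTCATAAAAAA

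Gm15441 encloses Txnip, whose product binds thioredoxin and restrains glucose uptake, and 606 of its exonic bases (36.2%) overlap exons of Txnip. It had 23.6, 12.7 and 15.3 normalised counts in KO libraries, against 36.2, 40.5, 33.6 and 60.7 in WT libraries, with no overlap between groups and a log2 fold change of -1.27 (limma adjusted p = 0.0222, SE 0.32). Txnip had 3759, 3606 and 2921 normalised counts in KO libraries, against 2973, 2670.2, 2851 and 3727 in WT libraries, and the groups overlapped. The antisense-minus-partner difference on the log2 scale averaged -7.59 ± 0.40 in KO and -6.15 ± 0.22 in WT (SD, n = 3 and 4), and KO minus WT was -1.44 (SE 0.26, limma adjusted p = 0.0304). The call of Gm15441 itself was lost without KO 2, KO 3, WT 2 or WT 4, where the adjusted p reached 0.0858. Gm15283 encloses Hif1a, the oxygen-regulated subunit of a hypoxia transcription factor. It had 19.1, 11.8 and 24.1 normalised counts in KO libraries, against 31.5, 41.5, 43.00 and 35.7 in WT libraries, with a log2 fold change of -1.05 (limma adjusted p = 0.0491, SE 0.32). Hif1a rose, with 811, 732 and 785 normalised counts in KO libraries, against 623, 516, 567 and 547 in WT libraries, and a log2 fold change of 0.46 (limma adjusted p = 0.0425, SE 0.14). This pair, chosen after its values were seen like that of Txnip, was the only one in which both rows were called in opposite directions, and KO minus WT of the difference was -1.52 (SE 0.33, limma adjusted p = 0.0419). The call of Gm15283 held only without KO 3 and that of Hif1a was lost in all 7 fits, with adjusted p up to 0.1997 and 0.126.

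For 1700097N02Rik and Dnah8 the difference, KO minus WT, was -1.40 (SE 0.30, limma adjusted p = 0.0419), and for Gm44096 and C1rl it was -2.75 (SE 0.61, limma adjusted p = 0.0419). Gm16144 was the member that was higher relative to its partner. It lies inside Anxa2, which encodes a calcium-dependent membrane-binding annexin, and had 422, 507 and 494 normalised counts in KO libraries, against 399, 349, 336 and 367 in WT libraries. Its own log2 fold change of 0.38 (limma adjusted p = 0.122, SE 0.15) was not called although all KO values lay above all WT values. Anxa2 fell, with 124, 115 and 172 normalised counts in KO libraries, against 237, 216, 237 and 233 in WT libraries, and a log2 fold change of -0.77 (limma adjusted p = 0.013, SE 0.18), and the difference was 1.16 (SE 0.25, limma adjusted p = 0.0419). The call of Anxa2 was lost without KO 2 (adjusted p = 0.0628).

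**Figure D5:**
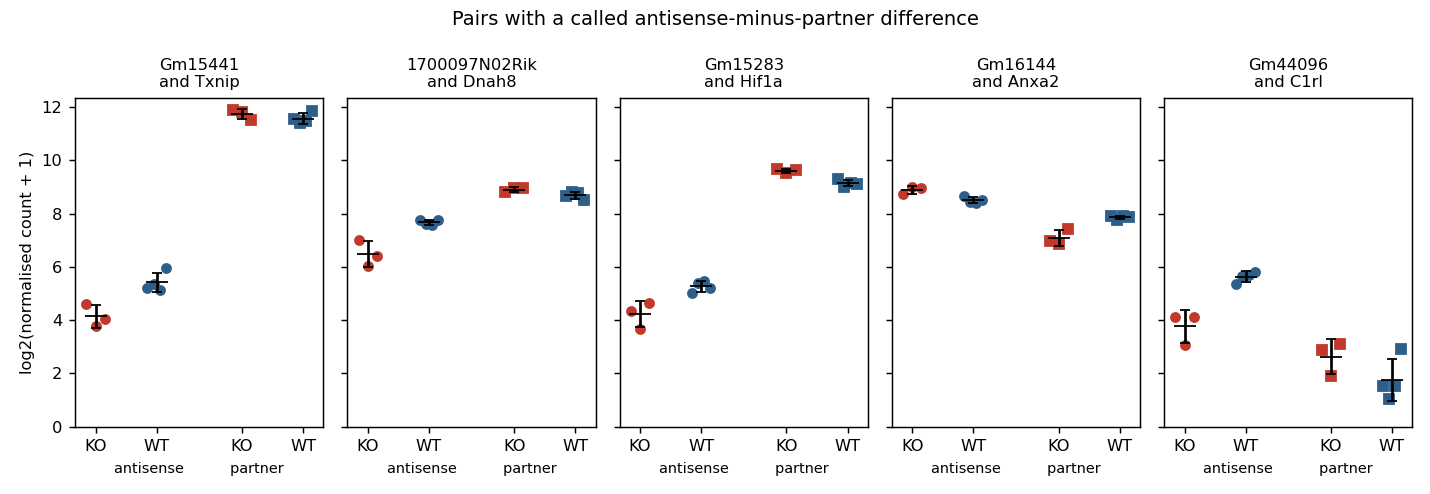
Log2(normalised count + 1) by library for the 5 pairs with a called difference, with the antisense RNA as circles at the left and the partner as squares at the right of each panel, KO (red) before WT (blue), and bars for the mean ± SD (n = 3 and 4). The KO circles lie below the WT circles in 4 panels and above them in the panel of Gm16144 and Anxa2.

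AC174082.2 (Gm48597), chosen after its values were seen, was the pair in which both rows fell. It shares 535 of its 543 exonic bases (98.5%) with Gcnt4, a glycosyltransferase gene of O-glycan branching. It had 28.2, 20.9 and 27.3 normalised counts in KO libraries, against 44.8, 45.8, 69.2 and 50.9 in WT libraries, with a log2 fold change of -1.01 (limma adjusted p = 0.0325, SE 0.28), and Gcnt4 had 86.3, 53.6 and 38.3 normalised counts in KO libraries, against 126, 93.7, 126 and 99.6 in WT libraries, with -0.96 (limma adjusted p = 0.0262, SE 0.25). As nearly all of this antisense RNA lies on Gcnt4 exons, the values of this row cannot be told apart from reads of Gcnt4. The call of AC174082.2 held only without KO 1 (adjusted p up to 0.116), and that of Gcnt4 was lost without KO 2, KO 3, WT 1 or WT 3 (up to 0.113).

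The antisense RNAs described next were among the most abundant and were not called, although calls were more frequent among the more abundant antisense RNAs. A530040E14Rik, within C130026I21Rik, was the highest, with 6714, 8593 and 8128 normalised counts in KO libraries, against 6931, 6923, 5969 and 7478 in WT libraries, and a log2 fold change of 0.19 (limma adjusted p = 0.381, SE 0.12). Its level per kb was 3363 in KO and 2938 in WT, against 118 and 106 for the partner, and 26.9% of its 75-base stretches recur in a gene elsewhere, so its counts are uncertain. Gm14820 is tail to tail with Suv39h1, a histone H3 lysine 9 methyltransferase gene, and had 3478, 3746 and 3162 normalised counts in KO libraries, against 4866, 4102, 3748 and 4843 in WT libraries. All KO values lay below all WT values, but the log2 fold change of -0.34 (limma adjusted p = 0.111, SE 0.13) was not called. Per kb Gm14820 stood at 1652 in KO and 2094 in WT, and Suv39h1 at 21.8 and 27.8. Of the 75-base stretches of Gm14820, 28.8% recur in another gene, including the genes it overlaps, so its counts are uncertain. Arhgap20os, tail to tail with Arhgap20, had 3105, 3569 and 3893 normalised counts in KO libraries, against 4476, 3604, 3396 and 4023 in WT libraries, and the groups overlapped. Arhgap20 had 19.99, 12.7 and 27.3 normalised counts in KO libraries, against 30.5, 27.7, 28.04 and 28.2 in WT libraries.

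Gm2479 starts 6 bp from Orai1, the pore of the store-operated calcium channel, and had 1392, 1350.0 and 1550.1 normalised counts in KO libraries, against 1571, 1565, 1357 and 1632 in WT libraries, with a log2 fold change of -0.10 (limma adjusted p = 0.71, SE 0.13). Orai1 had 1256, 1231 and 628 normalised counts in KO libraries, against 1165, 1543, 1136 and 1150.3 in WT libraries, in which KO 3 was the lowest library and the groups overlapped. Gm17120, inside the amino acid transporter gene Slc6a20a and with 75.8% of its exonic bases on Slc6a20a exons, had 753, 909 and 1248 normalised counts in KO libraries, against 960.0, 963, 887 and 860.0 in WT libraries. Slc6a20a had 301, 450.0 and 359.9 normalised counts in KO libraries, against 297, 297, 275 and 256 in WT libraries. Gm45040, without a partner among the rows used but opposite a protein-coding gene in GENCODE M21, had 779, 823 and 1116 normalised counts in KO libraries, against 993, 789, 942 and 879.5 in WT libraries, and Gm20548, inside the autophagy adaptor gene Wdfy3, had 674, 716 and 858 normalised counts in KO libraries, against 940.0, 818, 1017 and 903 in WT libraries. The groups overlapped in these antisense RNAs, whereas the Slc6a20a values of KO lay above those of WT, and none of these rows was called.

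Some of the widest differences rested on 1 library or on few reads. Gm28221, all of whose 347 exonic bases lie on exons of Ncald, had 22.7, 0 and 27.3 normalised counts in KO libraries, against 54.3, 37.3, 102 and 33.6 in WT libraries. It was the only antisense RNA with a 0 in any library, and its log2 fold change of -2.58 (limma adjusted p = 0.339, SE 1.32) was not called. Gm15915, inside the netrin gene Ntn4, had 94.5, 125 and 103 normalised counts in KO libraries, against 105, 60.7, 61.7 and 71.5 in WT libraries with overlap, and Ntn4 had 6.36, 10.9 and 14.2 normalised counts in KO libraries, against 22.9, 14.9, 23.4 and 17.3 in WT libraries without. The differences, KO minus WT, were -2.30 (SE 1.12, limma adjusted p = 0.383) for Gm28221, -1.99 (SE 0.77, limma adjusted p = 0.235) for Igf1os, 1.84 (SE 0.49, limma adjusted p = 0.105) for Gm17171, 1.43 (SE 0.49, limma adjusted p = 0.181) for Gm15915 and 1.34 (SE 0.39, limma adjusted p = 0.13) for Plut. None of these 5 was called. Tug1, a widely expressed lincRNA typed here as antisense to Morc2a and chosen after its values were seen, had 254, 121 and 335 normalised counts in KO libraries, against 209, 206, 241 and 214 in WT libraries, and a log2 fold change of 0.00 (limma adjusted p = 0.996, SE 0.27). Its KO libraries 1 and 3 lay above all WT libraries, and KO 2 lay below them.

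The rows next to the membership threshold had values of 4.55 to 14.5 in KO and 13.3 to 22.4 in WT for Gm12126, 8.18 to 19.1 in KO and 13.00 to 18.1 in WT for Gm43137 and 10.9 to 15.4 in KO and 11.9 to 20.02 in WT for 3010003L21Rik. Just outside it, the values were up to 12.03 in KO and 9.75 to 25.2 in WT for Gm26670, 9.09 to 21.9 in KO and 7.46 to 21.7 in WT for Gm16150 and 14.5 to 17.5 in KO and 7.63 to 22.4 in WT for Gm26737. The KO and WT values overlapped in all 6 rows.

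The 23 antisense RNAs without a partner were 2810001G20Rik, 4930592C13Rik, AV099323, BC023719, BC039966, BC051226, Gm11413, Gm11423, Gm12923, Gm12932, Gm13398, Gm13752, Gm13990, Gm14167, Gm14271, Gm14718, Gm16249, Gm26973, Gm30214, Gm43650, Gm45040, Map2k3os and Tmem147os. Partners were taken from the rows of the table alone. In GENCODE M21, 16 of the 23 have no gene on the opposite strand, and 4 (Gm45040, Gm26973, Tmem147os and BC023719) lie opposite a protein-coding gene that was not analysed here as a partner. Of the 23, Gm30214, Gm43650, Gm13990 and BC023719 fell.

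Of 35 tested genes that process double-stranded RNA and small RNAs, limma called 1, where 6.71% of all tested genes were called. This was Stau2, higher in KO, which encodes a double-stranded RNA binding protein of RNA transport, with 557, 711 and 809.5 normalised counts in KO libraries, against 479, 413, 371 and 459 in WT libraries, and a log2 fold change of 0.67 (limma adjusted p = 0.0125, SE 0.16). The groups did not overlap. The call was lost without KO 3 or WT 3 (limma adjusted p up to 0.0551). The next by p were Ago3, an Argonaute gene, with 432, 433 and 493 normalised counts in KO libraries, against 636, 622, 592 and 546 in WT libraries and -0.40 (limma adjusted p = 0.0853, SE 0.14) for its log2 fold change, Ago4 with -1.40 (limma adjusted p = 0.132, SE 0.55), and Drosha, the nuclear nuclease of microRNA precursors, with 0.40 (limma adjusted p = 0.15, SE 0.16). Dicer1 had 1413, 1484 and 2139.8 normalised counts in KO libraries, against 1413, 1391, 1382 and 1509 in WT libraries, and a log2 fold change of 0.21 (limma adjusted p = 0.412, SE 0.14), and counts per gene do not separate its oocyte form.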

How the data were processed

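The authors deposited 1 table with a normalised count signal per gene and library, made, per the submitters' processing notes, with cutadapt, FastQC, STAR, DESeq and DESeq2 on GRCm38 (mm10). No source used here names the counting program. Each value is a read count over the size factor of its library (0.914 to 1.10): of the recovered read numbers up to 1000, 100% were whole to within 0.05.

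The table's stop is 1 base past the annotated end, and ends are given as annotated in GENCODE M21, which all 198 antisense RNAs matched. The RefSeq promoter table held 99 of them. Exonic lengths are those of M21, and shared 75-base stretches were counted over its transcripts.

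The test was limma 3.58.1 (R 4.3.3) with trend and robust variance on log2(value + 1). The 19227 genes reaching 1 in 3 or more libraries were tested, and "called" means a Benjamini-Hochberg adjusted p under 0.05 among them. All 198 antisense RNAs and 163 of 169 partners passed this filter, and fold changes of low genes are understated on this scale. The difference within a pair was fitted the same way over all 566 pairs of the table. edgeR 4.0.16, which called 1334 genes, and DESeq2 1.42.0, which called 1457, were run on the recovered reads. The scripts were tested on simulated data.

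Named were the 12 called antisense RNAs with the smallest p, the 8 with the highest mean, the 8 with the called partner of smallest p, the 3 pairs with the largest difference each way, the 3 rows on each side of the threshold, and up to 4 genes of the double-stranded RNA list. Members, lists and alternatives were chosen with earlier results of these data known. Replicate numbers did not pair the samples (correlations of deviations of -0.12, 0.03 and 0.02).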

Additional observations from a re-analysis of the deposited data

Results flagged for a closer look

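Among 70 rows named (37 antisense RNAs and 33 partners), 7 had 1 WT library far from the other 3, where chance gives about 1 in 20. The 3 KO libraries were too few to be looked at in this way. Gm30214 had its lowest WT value, 198, in WT 4, which was still above all KO values. 3010003L21Rik also had its lowest WT value in WT 4, at 11.9. C1rl had its highest WT value in WT 4, at 6.50, and Igf1 was at 0 there. Arhgap20 had its highest WT value in WT 1, at 30.5. Orai1 had its highest in WT 2, at 1543, and Slfn2 its highest in WT 3, at 2.80, where the other 3 WT libraries were at 0.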

How the results depend on the processing

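The number of called genes, antisense RNAs and partners was 1291, 27 and 17, and 5 pairs had a called difference. Leaving out each library in turn gave 594 to 1767 genes, 11 to 31 antisense RNAs, 8 to 22 partners and 0 to 10 pairs. With neither trend nor robust variance limma called 106 genes, 1 antisense RNA, 2 partners and 0 pairs. Without KO 2 and KO 3 it called 98 genes, 1 antisense RNA, 2 partners and 0 pairs. With the granulosa marker covariate it called 1 gene, 0 antisense RNAs, 0 partners and 0 pairs. For pairs, 0 were called with a pseudocount of 0.5, 19 with 5, 2 with no filter and 13 with a filter of at least 10 in 3 libraries. No pair was called without KO 2, without KO 3 or without any 1 WT library either. At an unadjusted p under 0.05, limma had 30 pairs with no trend, 20 without KO 2 and KO 3, 2 with the covariate, 38 with the pseudocount of 0.5, 26 and 36 without KO 2 and KO 3 in turn, and 36, 30, 28 and 38 without WT 1, 2, 3 and 4. With the covariate, 10 partners had an unadjusted p under 0.05. With the replicate number as a block on libraries 1 to 3, it called 1010 genes, 19 antisense RNAs, 15 partners and 14 pairs, although the numbers did not pair the samples. A membership mean of at least 10 gave 29 called antisense RNAs and one of at least 30 gave 23. The causes of these shifts were not tested. The median log2 fold change of the antisense RNAs was below 0 in all 19 fits of single genes, from -0.35 to -0.22.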

Other observations

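Some partners carried more than 1 of the antisense RNAs. This held for 6 partners and 12 antisense RNAs: Gm42836 and Gm4610 over Bcar3, 6330410L21Rik and Gm42650 over Egf, AC133947.1 and Gm19531 over Gnb5, AC158686.2 and Grip1os3 over Grip1, Gm15941 and Gm28221 over Ncald, and AC139758.2 and AC155167.1 over Vwa8. AC133947.1 and Gm19531 had log2 fold changes of -0.95 (limma adjusted p = 0.00436, SE 0.19) and -0.30 (limma adjusted p = 0.43, SE 0.21). The transcripts were short, with a median of 1115 exonic bases (347 to 9734), and 13 of the 198 had a single exon block in GENCODE M21.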
